A study of Homo sapiens with 17 samples.

Results

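The genes described here encode the proteins of the cytosolic ribosome, in RNA-Seq of SF8628 cells treated with the BET bromodomain inhibitor AZD5153. They were chosen by symbol and level. A protein-coding gene was taken when its symbol began with RPL or RPS and a number, or was RPLP0, RPLP1, RPLP2 or RPSA, and when its mean over all libraries was at least 100 normalized counts. RPS27L, RPS4Y1, RPS4Y2 and the S6 kinase genes were left out. Of 60664 genes in the table, 83 had such a symbol and 78 passed the level, 29 of the small and 49 of the large subunit. SF8628 is a single cell line established from a diffuse intrinsic pontine glioma (DIPG), so all libraries share 1 tumour's genome, and it was grown as a monolayer in medium with serum. Cells received the vehicle DMSO or 1 μM AZD5153 for 24 or 48 hours, which gave 4 groups with 3 libraries each. Nothing in the labels says whether the libraries of a group came from separate cultures, so the p-values measure the spread between libraries, which may be technical.

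A cytosolic ribosome is built from ribosomal RNA and a fixed set of proteins, most of them needed in a single copy per particle. The small subunit reads the mRNA and the large subunit forms the peptide bond. The mRNAs of nearly all of these proteins open with a C followed by a run of pyrimidines, the 5′ terminal oligopyrimidine (TOP) tract, through which mTOR and the RNA-binding protein LARP1 control their translation. AZD5153 binds the bromodomains of BET proteins and displaces these from acetylated chromatin.

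The start sites of the members held a sequence feature that the choice by symbol had not used. RefSeq promoter windows of 300 bases (GRCh38.p14, 250 bases before and 50 after a start) were matched by symbol for 63 of the 78 members. A C at the first transcribed base followed by C or T only, for a run of at least 5 bases, was present in 46 of the 63 members (73.0%) and in 725 of 10353 other tested protein-coding genes (7.0%). The share was 73.9% among small subunit genes and 72.5% among large subunit genes. The letters CCGGAAG, searched on both strands, were in 34.9% of the member windows and in 22.1% of the others. TATAAA was in 9.52% against 8.74%, and CACGTG in 7.94% against 12.5%. Shown next are 30 bases around the start of genes on which the results turn, with 15 bases before it, lower case throughout except that the pyrimidine run from the first transcribed base is in capitals. RPL12, RPLP1, RPL28 and RPS12 stand for genes that were higher with AZD5153, RPL29, RPL21 and RPL22 for genes that were lower, and RPS28 and RPL7L1 for a higher and a lower gene whose listed start opens with no such run.
RPL12: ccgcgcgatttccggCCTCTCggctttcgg
RPLP1: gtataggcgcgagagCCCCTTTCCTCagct
RPL28: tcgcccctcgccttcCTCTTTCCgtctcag
RPS12: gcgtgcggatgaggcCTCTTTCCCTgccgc
RPL29: caccgcagcccctttCTCTTCCggttctag
RPL21: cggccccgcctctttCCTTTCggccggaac
RPL22: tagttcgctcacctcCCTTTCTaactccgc
RPS28: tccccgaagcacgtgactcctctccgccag
RPL7L1: cggaagtgcggcgccgtagctaggagcgga
In order, these lie at chr9:127451392-127451421 on the minus strand, chr15:69452803-69452832 plus, chr19:55385917-55385946 plus, chr6:132814554-132814583 plus, chr3:51995881-51995910 minus, chr13:27251543-27251572 plus, chr1:6199581-6199610 minus, chr19:8321481-8321510 plus and chr6:42879601-42879630 plus. The run was 11 bases in RPLP1 and 6 in RPL12. Members with and without the run had nearly the same median log2 fold change over both times, 0.23 for the 46 with it and 0.22 for the 17 without. The run was required exactly at the listed start, and in RPS28 a run of C and T follows right after the first base. The 17 may therefore include TOP mRNAs, and whether the effect differed with the TOP tract was not tested. Of the 46, 33 were higher and 4 lower with AZD5153, and of the 17, 13 were higher and 3 lower, where 37.7% of all genes tested were higher and 38.0% lower over both times.

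The libraries held from 15759148 to 27335220 reads assigned to genes. Library 1 of DMSO at 24 hours stood apart from its group. Its score on the second principal component was 44.6, whereas the other DMSO and AZD5153 libraries of 24 hours had 14.8 to 21.8, and its chi-square per degree of freedom against the other libraries of its group was 15.2 and 22.9, whereas it was 2.09 to 4.82 for every other pair of replicates. The counts of calls over all members at 24 hours, the subunit sums and medians there, and several values of named genes are therefore also given without it. Calls by subunit, calls held in every scaling and calls in related lists are given with all libraries only. As for the label of the line, VIM (at least 14454 normalized counts), NES (527) and SOX2 (119) were present in every library, OLIG2 was at 0 and PDGFRA reached at most 5.40. Of the leukocyte and endothelial markers, PTPRC stayed at or under 4.46 and AIF1 and CDH5 were at 0, while CSF1R reached 211 and PECAM1 565. Marker sums moved with the treatment, at 25.6 to 48.9 with AZD5153 against 177 to 213 in DMSO for the 4 leukocyte genes, 50.0 to 67.0 against 324 to 636 for the 3 endothelial genes, and 1008 to 1482 against 854 to 994 for the 3 epithelial genes, mostly KRT18. The sum of the 6 neural and glial genes, mostly VIM, was 18835 to 20637 with AZD5153 against 21815 to 30551 in DMSO at 24 hours, and 15223 to 16782 against 17448 to 17848 at 48 hours. The part of these in the ribosomal protein results was not tested.

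Together the 78 genes took 4.29% ± 0.16 (SD, n = 3) of the reads on genes in DMSO at 24 hours and 4.75% ± 0.20 with AZD5153, and 4.48% ± 0.08 and 4.97% ± 0.06 at 48 hours. Without library 1, DMSO at 24 hours had 4.33% ± 0.19 over 2 libraries, with 1.51% in small and 2.83% in large subunit genes. Every AZD5153 library was above every DMSO library of its time, the closest being 4.52% against 4.47% at 24 hours, and 4.91% against 4.57% at 48 hours. The ratio of the means was 1.11 at both times as a share of reads. For summed normalized counts, whose size factors are not the library totals, it was 1.21 at 24 hours and 1.25 at 48 hours. A share of bulk RNA cannot tell more of these mRNAs per cell from fewer of the others.

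The small subunit genes took 1.49% ± 0.05 of reads in DMSO at 24 hours and 1.67% ± 0.08 with AZD5153, and 1.52% ± 0.02 and 1.73% ± 0.02 at 48 hours. The large subunit genes took 2.80% ± 0.10 and 3.07% ± 0.12, then 2.96% ± 0.06 and 3.23% ± 0.04. The ratio of small to large subunit counts was 0.532 ± 0.000491 in DMSO and 0.545 ± 0.00384 with AZD5153 at 24 hours, and 0.512 ± 0.00344 and 0.537 ± 0.00296 at 48 hours, with no overlap between treatments at either time. Without library 1 of DMSO at 24 hours the ratio there was 0.532 ± 0.000664 over 2 libraries. These sums are descriptions of the chosen genes and were given no test.

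**Figure D1:**
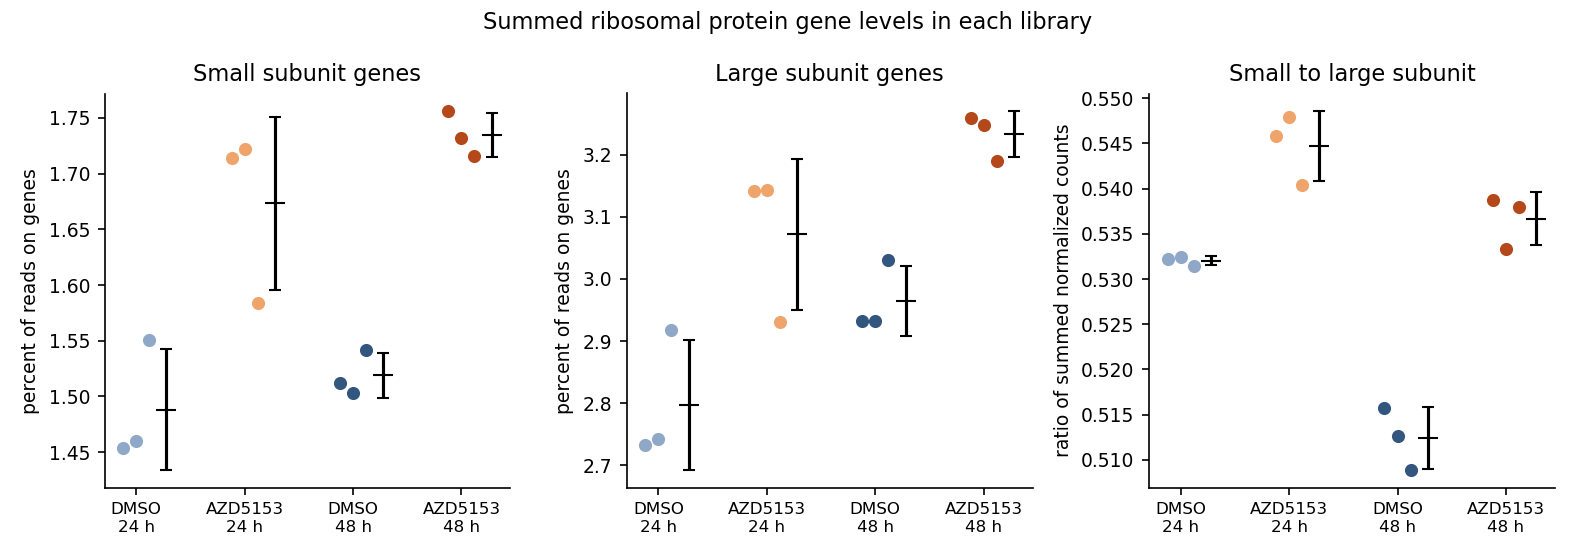
Summed levels of the 29 small subunit genes and the 49 large subunit genes as percent of the reads on genes, and the ratio of their summed normalized counts, by group. Points are the 3 libraries of a group and black bars the mean and SD, on axes that do not start at 0, and the AZD5153 libraries lie above the DMSO libraries of the same time in all 3 panels.

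Gene by gene, log2(normalized count + 1) was fitted with limma over all 4 groups and p-values were adjusted over 15599 genes, those whose mean reached 10. At 24 hours, 48 of 78 members were higher with AZD5153, 9 were lower and 21 were not called at an adjusted p under 0.05. Over all genes tested, 33.9% were higher and 34.6% lower, and over genes whose mean reached 100, as that of every member did, 38.3% and 37.9%. At 48 hours, 44 were higher and 6 lower, against 33.1% and 33.9% of all genes and 40.1% and 35.2% of those reaching 100. Over both times, 58 were higher and 8 lower, against 37.7% and 38.0%, or 42.9% and 39.5%. The median log2 fold change of the members was 0.23 at 24 hours and 0.25 at 48 hours, a median fold of 1.18 and 1.19, whereas the median of all genes was 0.00 at both times. The call was higher at each time for 33 members and lower at each time for 6, against 26.0% and 27.1% of all genes.

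The size of this majority depended on the scaling of the libraries. With equal library totals the median of all genes moved to -0.12 at 24 hours and -0.17 at 48 hours, and 31 members were higher and 11 lower at 24 hours, against 27.7% and 40.4% of all genes so scaled, and 29 and 13 at 48 hours, against 24.9% and 41.8%. The median of the members remained 0.24 and 0.25 above that of all genes. With quantile normalization, 26 were higher and 16 lower at 24 hours, against 36.5% and 31.9% of all genes so scaled, and 20 higher and 23 lower at 48 hours, against 37.2% and 31.1%. Under quantile normalization the median of the members was 0.066 at 24 hours, beside 0.065 for all genes. It was -0.01 at 48 hours, below the 0.09 of all genes. In the deposited scaling, 3 other scalings (equal totals with and without the members, 7 stably expressed genes), quantile normalization, edgeR and DESeq2 alike, 22 members were called higher and 8 lower at 24 hours (28.2% and 10.3%, against 27.5% and 31.0% of all genes held to the same requirement). At 48 hours 18 were higher and 4 lower (23.1% and 5.13%, against 24.6% and 28.1%), and over both times 23 and 7 (29.5% and 8.97%, against 29.5% and 33.5%). Under this requirement the share of members higher was thus near that of all genes, and the share lower was below it.

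Small subunit genes were called higher in 20 and lower in 2 of 29 at 24 hours, and in 18 and 0 at 48 hours, where 1 (RPS7) was lower at an unadjusted limma p under 0.05, edgeR called 1 lower and DESeq2 0. Large subunit genes were higher in 28 and lower in 7 of 49 at 24 hours, and in 26 and 6 at 48 hours. Over all genes tested, 33.9% were higher and 34.6% lower at 24 hours, and 33.1% and 33.9% at 48 hours. The median log2 fold change was 0.25 for the small and 0.23 for the large subunit at 24 hours, and 0.32 and 0.23 at 48 hours. At 48 hours the medians were 0.15 and 0.063 with equal totals, and 0.083 and -0.020 with quantile normalization. Single genes ranged from -0.40 to 0.93 in the small and from -1.72 to 0.98 in the large subunit at 24 hours. Without library 1 of DMSO at 24 hours, 55 members were higher and 9 lower at 24 hours, against 34.0% and 35.2% of all genes in the same fit, and 62 and 8 over both times, against 38.8% and 39.1%. The medians at 24 hours were then 0.25 for the small and 0.22 for the large subunit.

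**Figure D2:**
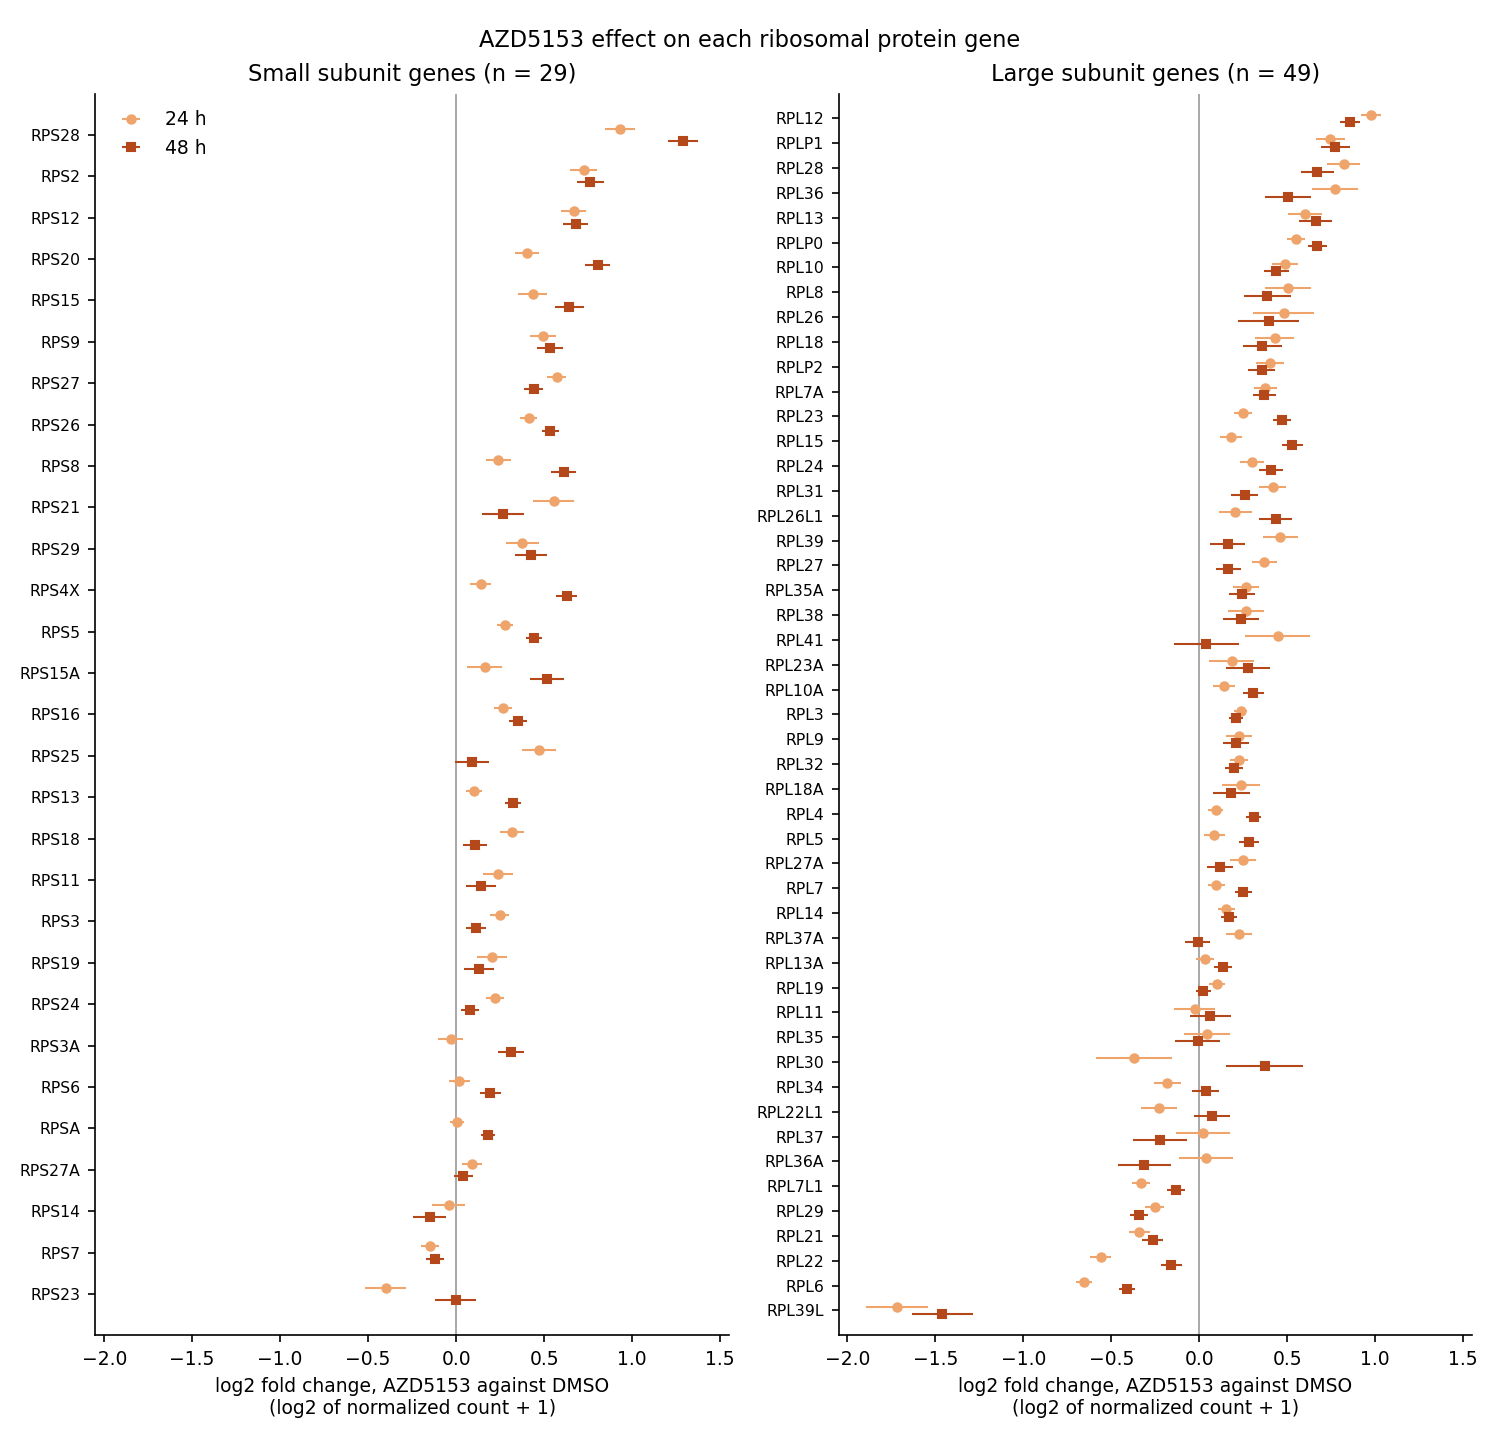
Log2 fold change of AZD5153 against DMSO for each of the 29 small subunit and 49 large subunit genes, with the standard error from limma as a horizontal bar, at 24 hours (circles) and 48 hours (squares), ordered by the value over both times. Values right of 0 are higher with AZD5153 in the deposited scaling, as they are over both times for 64 of 78 genes. Of the 78, 58 were called higher over both times and 8 lower, where 37.7% of all genes were higher and 38.0% lower. With quantile normalization the calls are 24 against 21 of 78, where 41.6% of all genes were higher and 34.9% lower.

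In terms of single libraries, every AZD5153 library was above every DMSO library at 24 hours for 39 members and below it for 9, where 34.0% and 34.8% of all genes were. At 48 hours it was above for 53 members and below for 8, against 37.5% and 37.2% of all genes. Both times together gave 33 above and 6 below, against 27.2% and 28.1%. For genes whose mean reached 100 the shares above and below were 37.5% and 37.6% at 24 hours. They were 44.5% and 38.5% at 48 hours, and 32.6% and 30.5% for both times together. Without library 1 of DMSO at 24 hours, 53 members were above and 10 below at that time, against 38.4% and 39.5% of all genes. For genes whose mean reached 100 the shares were then 41.6% and 42.0%.

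Among small subunit genes, RPS28 had the largest rise. RPS28 (ENSG00000233927, chr19:8321158-8323340, plus strand) lies near the mRNA exit on the subunit head. Its normalized counts were 2491, 2528 and 2794 in DMSO and 5335, 5541 and 4133 with AZD5153 at 24 hours. At 48 hours they were 2461, 2465 and 2300 in DMSO and 6044, 5626 and 5979 with AZD5153. All AZD5153 libraries were above all DMSO libraries, and the third of AZD5153 at 24 hours was the lowest of the treated. The log2 fold change of RPS28 was 0.93 ± 0.09 (SE) at 24 hours and 1.29 ± 0.09 at 48 hours (limma adjusted p = 9.6e-08 and 2e-09), or 1.91-fold and 2.44-fold. Of the canonical exon bases of RPS28, 27.4% also lie in an exon on the opposite strand, in KANK3, whose mean was 0.143.

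RPS12, a small subunit protein on the beak of the subunit, had 5878, 6825 and 7474 normalized counts in DMSO and 11240, 10799 and 9925 with AZD5153 at 24 hours. At 48 hours RPS12 had 6792, 6782 and 7309 in DMSO and 11367, 11188 and 10888 with AZD5153. Groups did not overlap, and the fold was 1.59 and 1.60 (limma adjusted p = 5.1e-07 and 4.1e-07). RPS2, at the mRNA entry, had group means of 29531 in DMSO and 48785 with AZD5153 at 24 hours, then 30267 and 51330, and rose 1.65-fold and 1.70-fold, but with quantile normalization its log2 fold changes of 0.11 and 0.08 were not called. Pseudogenes named after RPS2 carried a summed mean of 5499 normalized counts, 13.8% of that of RPS2 itself, and this sum was the highest of any member. RPS15, whose protein sits on the head of the subunit, rose 1.35-fold and 1.56-fold. RPS20 rose 1.32-fold at 24 hours and 1.75-fold at 48 hours, from 5703, 5570 and 5126 in DMSO to 9720, 9175 and 9707 with AZD5153 at 48 hours, which do not overlap.

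The small subunit genes with the lowest values were RPS23, RPS7, RPS14, RPS27A and RPSA. RPS23, a protein of the decoding centre, had 938, 685 and 683 in DMSO and 514, 574 and 646 with AZD5153 at 24 hours, which do not overlap, and its log2 fold change was -0.40 ± 0.12 (limma adjusted p = 0.0065), or -0.25 with a call without library 1 of DMSO. At 48 hours RPS23 had 694, 613 and 640 in DMSO and 600, 666 and 681 with AZD5153, which overlap, with a group mean of 649 in each. RPS7, which also binds MDM2, fell by 0.15 on the log2 scale at 24 hours (limma adjusted p = 0.019). Its value at 48 hours was -0.12 (adjusted p = 0.053), and it was called there without libraries 1 or 3 of DMSO at 24 hours, library 2 of DMSO or library 2 of AZD5153 at 48 hours, with -0.12 to -0.16. RPS7 was also called there with equal totals (-0.29), quantile normalization (-0.42) and edgeR (-0.13). The call for RPS7 at 24 hours was lost without library 3 of DMSO or library 3 of AZD5153 at 24 hours, with -0.12 each. RPS14, whose loss on chromosome 5 underlies the anaemia of 5q deletion, had -0.04 ± 0.09 and -0.15 ± 0.09, with adjusted p-values of 0.70 and 0.17. Without library 1 of DMSO at 24 hours RPS14 was called at both times, with -0.20 and -0.15. At 48 hours it was also called lower with equal totals (-0.32), with quantile normalization (-0.45) and in a fit of the groups of that time alone (-0.15). RPS27A, made as a fusion with ubiquitin, had 0.09 ± 0.06 and 0.04 ± 0.06 and was called at neither time, but was called higher without library 3 of DMSO at 24 hours (0.14) and lower at 48 hours with quantile normalization (-0.22) and equal totals (-0.13).

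Other small subunit genes of known roles had smaller values. RPS6, the substrate of the S6 kinases, had 13680, 11658 and 11893 in DMSO and 12248, 12494 and 12835 with AZD5153 at 24 hours, overlapping, and a log2 fold change of 0.02 ± 0.06, which was -0.20 and called with quantile normalization. At 48 hours RPS6 had 11337, 11140 and 12550 in DMSO and 13425, 13552 and 13046 with AZD5153, not overlapping, and 0.19 ± 0.06 (limma adjusted p = 0.0087), which was 0.02 with equal totals and -0.13 with quantile normalization. RPSA, also known as the laminin receptor precursor, had 0.01 ± 0.04, then 0.18 ± 0.04 at 48 hours (limma adjusted p = 0.00068). With quantile normalization RPSA had -0.40 and -0.23, both called as lower, and with equal totals -0.12, called lower, at 24 hours and 0.011 without a call at 48 hours. RPS3, at the mRNA entry and also a DNA repair factor, had 0.25 ± 0.06 at 24 hours (limma adjusted p = 0.001), or 0.12 with equal totals and -0.073 with quantile normalization, neither called. At 48 hours RPS3 had 0.11 ± 0.06 (adjusted p = 0.087), or -0.22 and a call with quantile normalization, and its 0.11 was called without library 1 of DMSO at 24 hours, as was 0.16 without library 3 of DMSO at 48 hours. RPS19, the gene most often mutated in Diamond-Blackfan anaemia, had 7519, 9787 and 10106 in DMSO and 10421, 11199 and 9749 with AZD5153 at 24 hours, which overlap. Its 0.20 ± 0.08 there (adjusted p = 0.04) became 0.07 and was not called without library 1 of DMSO, and was lost without most of the other libraries taken singly, with 0.15 to 0.21, and with equal totals, the 7 stably expressed genes or quantile normalization, with 0.059 to 0.16. At 48 hours RPS19 had 0.13 ± 0.08, which was called only without library 1 of DMSO at 24 hours and in a fit of the groups of that time alone.

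Among large subunit genes, RPL12 had the largest rise over both times. RPL12 forms the base of the stalk, where translation factors bind, and RPLP0, RPLP1 and RPLP2 form the stalk itself. RPL12 (ENSG00000197958, chr9:127447674-127451406, minus strand) had 15899, 17526 and 18782 normalized counts in DMSO and 34793, 34733 and 33047 with AZD5153 at 24 hours. At 48 hours RPL12 had 20708, 19926 and 22551 in DMSO and 38126, 38438 and 37532 with AZD5153. The treated libraries lay far above the untreated ones at both times. Its log2 fold change was 0.98 ± 0.06 and 0.85 ± 0.06 (limma adjusted p = 4e-10 and 2e-09), or 1.97-fold and 1.81-fold.

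RPLP1 (chr15:69452814-69456205) had 12801, 16066 and 16934 in DMSO and 27002, 26287 and 23046 with AZD5153 at 24 hours, and rose 1.67-fold, then 1.71-fold at 48 hours. RPLP0 (chr12:120196699-120201235), the stalk protein that carries the P1 and P2 dimers, had 29310, 32810 and 33890 in DMSO and 47573, 47655 and 45031 with AZD5153 at 24 hours. At 48 hours RPLP0 had 32886, 32456 and 29999 against 50219, 51058 and 50343, again with no overlap, and its folds were 1.46 and 1.59 (limma adjusted p = 1.6e-07 and 1.4e-08). With quantile normalization, however, RPLP0 had -0.18 and was called lower at 24 hours, and had -0.020 at 48 hours. RPLP2 rose 1.32-fold and 1.28-fold, with 0.02 and no call at 48 hours under quantile normalization.

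RPL28 had 6834, 9181 and 9622 in DMSO and 14818, 15739 and 14272 with AZD5153 at 24 hours, and rose 1.77-fold and 1.59-fold. Library 1 of DMSO was the lowest at 24 hours for RPL28, as for RPL12, RPLP1, RPLP0, RPL36 and RPL13. RPL36 had 3140, 3890 and 4957 in DMSO and 7463, 7397 and 5458 with AZD5153, which do not overlap, and its fold was 1.71 at 24 hours and 1.42 at 48 hours. RPL13 rose 1.52-fold and 1.58-fold. RPL10, which completes the large subunit near the peptidyl transferase centre, rose 1.40-fold and 1.35-fold, with no overlap at either time, though its 0.15 at 48 hours under quantile normalization was not called. Of its canonical exon bases, 53.7% lie in exons of DNASE1L1 on the opposite strand, whose mean was 80.4. RPL3, of the peptidyl transferase centre, had 19361, 19202 and 19229 in DMSO and 23009, 23171 and 21823 with AZD5153 at 24 hours, and 0.23 ± 0.04, then 0.21 ± 0.04 at 48 hours, but -0.084 and -0.11 with quantile normalization, the second called lower, and 0.036 without a call at 48 hours under equal totals.

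**Figure D3:**
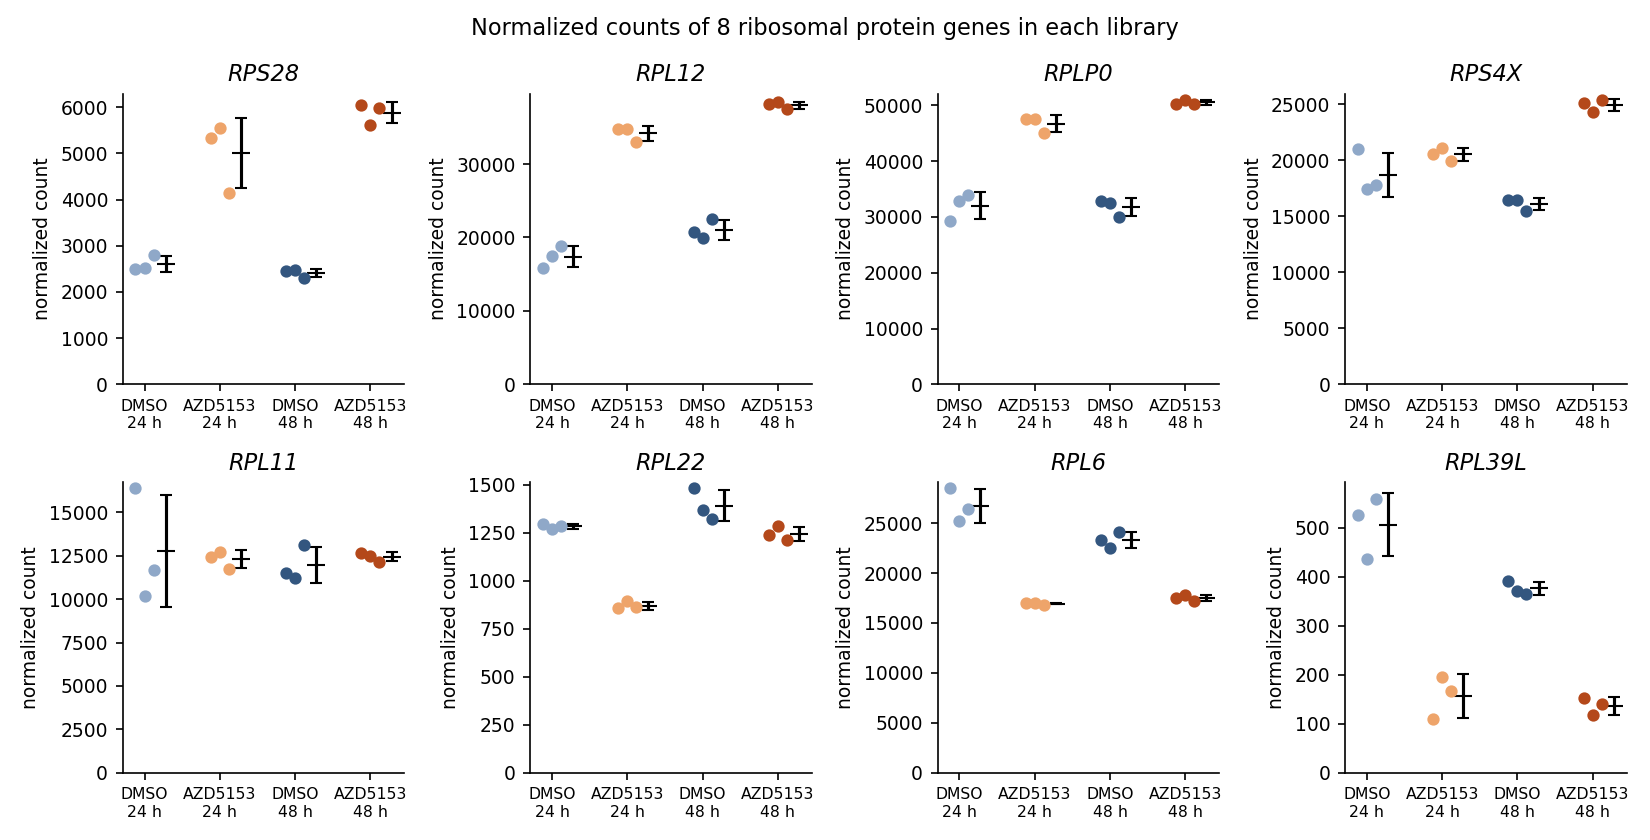
Normalized counts of RPS28, RPL12, RPLP0, RPS4X, RPL11, RPL22, RPL6 and RPL39L in each library, with the mean and SD of the 3 libraries of a group as black bars and axes from 0. Treated and untreated libraries do not overlap at either time for RPS28, RPL12, RPL22, RPL6 and RPL39L, nor for RPLP0, whose direction turns at both times with quantile normalization, and library 1 of DMSO at 24 hours is the highest of its group for RPL11 at 16402.

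The 5 lowest values over both times were all in the large subunit. RPL39L (ENSG00000163923, chr3:187120948-187180908, minus strand), a paralog of RPL39 known from the testis, had 526, 435 and 557 normalized counts in DMSO and 109, 196 and 166 with AZD5153 at 24 hours. At 48 hours RPL39L had 392, 371 and 365 against 153, 117 and 139. Its log2 fold change was -1.72 ± 0.18 and -1.46 ± 0.18 (limma adjusted p = 3e-07 and 1.9e-06), and it was lower in 6 of 6 treated libraries. RPL6 (ENSG00000089009, chr12:112405189-112418838, minus strand), of the large subunit surface, had 28528, 25216 and 26383 in DMSO and 16990, 17002 and 16841 with AZD5153 at 24 hours. At 48 hours RPL6 had 23272, 22499 and 24081 against 17545, 17776 and 17176, and it fell by 0.65 and 0.41 on the log2 scale, 0.64-fold and 0.75-fold of DMSO. Of the 100-base windows of its canonical transcript, 63.7% occur elsewhere in hg38, where reads could map to more than 1 place.

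RPL22, which also binds small viral RNAs, had 1295, 1270 and 1282 in DMSO and 855, 894 and 860 with AZD5153 at 24 hours, 0.68-fold of DMSO (limma adjusted p = 4.5e-07). At 48 hours RPL22 had 1482, 1370 and 1321 against 1237, 1284 and 1210, 0.90-fold (adjusted p = 0.026), a call lost without library 1 of DMSO or libraries 1 or 3 of AZD5153 at 48 hours, with -0.11, -0.16 and -0.14, and with the 7 stably expressed genes (-0.13). RPL29, a heparin-binding protein, had 15656, 16308 and 17267 in DMSO and 13523, 13721 and 14011 with AZD5153 at 24 hours, and was 0.84-fold and 0.79-fold of DMSO. RPL21 was 0.79-fold and 0.83-fold, with treated and untreated libraries apart at both times, and 100.0% of its windows occur elsewhere in hg38. RPL29, RPL21, RPL6 and RPL39L were called lower at both times under every scaling and count test named.

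RPL5 and RPL11 bind the 5S ribosomal RNA and, when free, MDM2. RPL11 (chr1:23691742-23696835) had 16402, 10192 and 11688 in DMSO and 12442, 12717 and 11710 with AZD5153 at 24 hours, so that 1 untreated library was above and the others below all treated ones. Its log2 fold change was -0.03 ± 0.12 at 24 hours (adjusted p = 0.86), but 0.17 with a call (limma adjusted p = 0.0094) without library 1 of DMSO, and it was 0.06 ± 0.12 at 48 hours. RPL5 had 16604, 15299 and 14395 in DMSO and 15844, 16136 and 17061 with AZD5153 at 24 hours, with 0.08 ± 0.06 (adjusted p = 0.21), or 0.14 with a call without library 1 of DMSO. At 48 hours RPL5 had 0.28 ± 0.06 (limma adjusted p = 0.00049), which was 0.11 with equal totals and -0.019 with quantile normalization, neither of them called.

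Paralog pairs were compared within each library. RPL39L was 15.8% ± 3.7 (SD, n = 3) of RPL39 in DMSO at 24 hours and 3.56% ± 1.1 with AZD5153, and 9.42% ± 0.78 and 3.07% ± 0.49 at 48 hours, as a ratio of normalized counts not corrected for length. RPL39 itself, at the exit tunnel, rose 1.38-fold at 24 hours and had 1.12-fold at 48 hours, a value of 0.16 that was called without library 1 of DMSO at 24 hours and in a fit of the groups of that time alone, but not otherwise. RPL7L1 was 82.5% ± 2.2 of RPL7 in DMSO and 61.4% ± 1.4 with AZD5153 at 24 hours, and 68.4% ± 2.8 and 52.5% ± 3.0 at 48 hours. RPL7L1 was 0.80-fold of DMSO at 24 hours (limma adjusted p = 3e-05). At 48 hours it was 0.91-fold (adjusted p = 0.031), a call lost without libraries 1 or 3 of DMSO or library 2 of AZD5153, with -0.10 to -0.13, or with the 7 stably expressed genes (-0.11). RPL7 had 0.10 ± 0.05 at 24 hours, or 0.13 with a call without library 1 of DMSO and 0.11 with a call by edgeR. At 48 hours RPL7 had 0.25 ± 0.05 (limma adjusted p = 0.00022), which was 0.079 with equal totals and -0.018 with quantile normalization, neither of them called.

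RPL22L1, which can stand in for RPL22, was 54.1% ± 2.4 of it in DMSO and 68.1% ± 5.8 with AZD5153 at 24 hours, and 34.3% ± 5.1 and 40.0% ± 3.0 at 48 hours, where the libraries overlap. RPL22L1 had 735, 681 and 667 in DMSO and 638, 591 and 547 with AZD5153 at 24 hours, and -0.23 ± 0.10 there (adjusted p = 0.055), called without library 2 of DMSO at 48 hours (-0.23) or library 1 of AZD5153 (-0.29), with equal totals (-0.35) and with the 7 stably expressed genes (-0.28). RPS27L, which was left out by the rule, was 14.5% ± 0.3 of RPS27 in DMSO at 24 hours and 8.36% ± 0.11 with AZD5153, and 15.3% ± 0.36 and 8.11% ± 0.31 at 48 hours. RPS27 rose 1.49-fold and 1.36-fold, whereas RPS27L fell by 0.22 and 0.47 on the log2 scale. RPL26L1 rose 1.35-fold at 48 hours (limma adjusted p = 0.00065). It had 0.20 on the log2 scale without a call at 24 hours, and 0.30 and 0.26 with a call without library 3 of DMSO or library 3 of AZD5153, and 0.25 with a call under quantile normalization. RPL26, with a mean of 137 and 65.3% of its exon bases in another gene, had 0.48 ± 0.17 at 24 hours (adjusted p = 0.023), a call lost without library 2 of DMSO (0.29) or libraries 1 or 3 of AZD5153 (0.48 each), and with equal totals (0.36). Its 0.39 at 48 hours was not called, but was 0.77 with a call under quantile normalization, and was called in several other settings, among them without libraries 1 or 2 of DMSO at 24 hours, and was 0.48 with a call without library 3 of AZD5153. RPL36AL rose 1.62-fold at 24 hours and 1.22-fold at 48 hours, and RPL36A, with 0.04 and -0.31, was called at neither time, but was called lower at 48 hours without library 3 of DMSO (-0.43) and with equal totals (-0.48). RPL36AL was 915% ± 167 of RPL36A in DMSO and 1437% ± 154 with AZD5153 at 24 hours, and 1157% ± 286 and 1727% ± 77.3 at 48 hours, with no overlap at either time. RPL26L1 was 609% ± 198 of RPL26 in DMSO and 483% ± 32.2 with AZD5153 at 24 hours, and 578% ± 17.7 and 596% ± 77.6 at 48 hours, which overlap at both times.

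**Figure D4:**
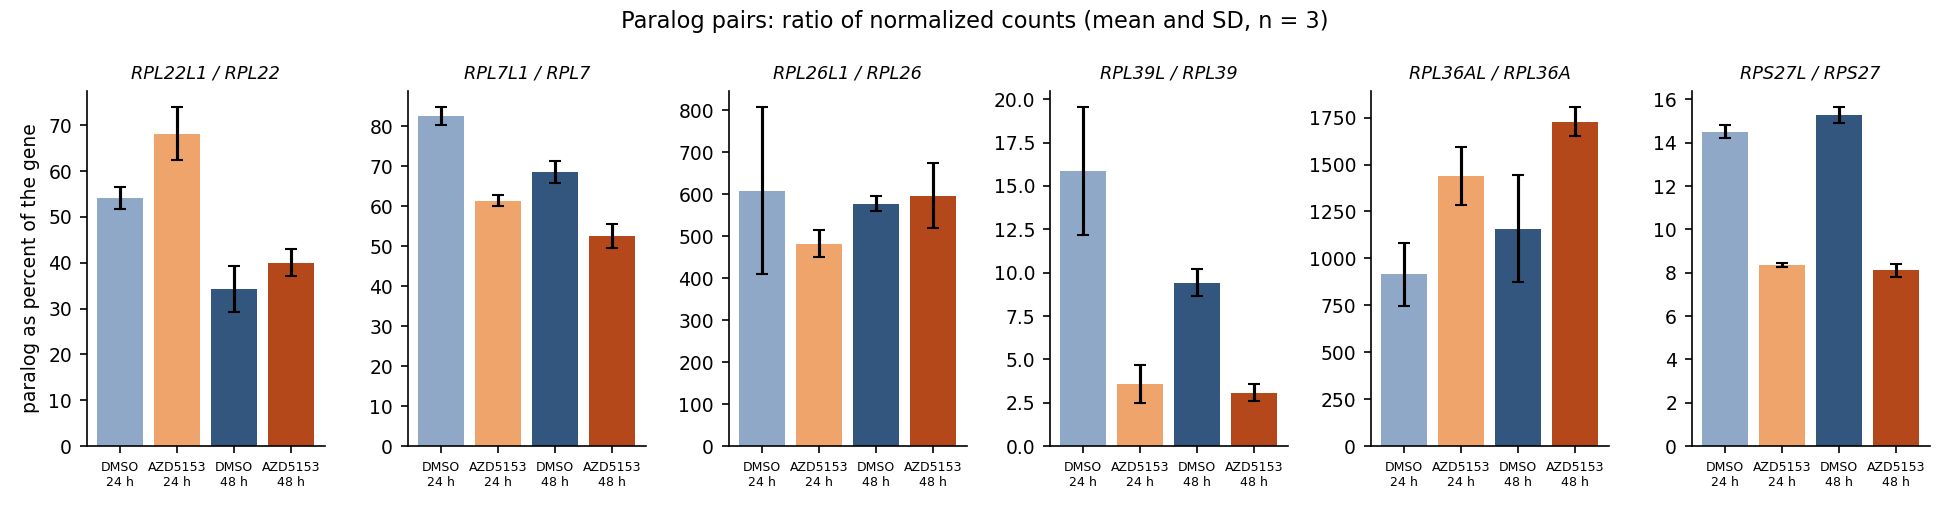
Normalized count of a paralog as percent of that of its ribosomal protein gene in the same library, not corrected for length, for 6 pairs, with bars as the mean and error bars as the SD of 3 libraries and axes from 0. RPL39L to RPL39, RPL7L1 to RPL7 and RPS27L to RPS27 are lower with AZD5153 at both times, RPL36AL to RPL36A is higher at both times, and RPL22L1 to RPL22 is higher at 24 hours, at 68.1% against 54.1%.

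Whether the AZD5153 effect differed between 24 and 48 hours was tested as a difference of the 2 effects. The effect was called higher at 48 hours for 14.4% of all genes and lower for 10.1%. For genes whose mean reached 100 these shares were 19.8% and 11.3%. Of 78 members, 12 were higher at 48 than at 24 hours and 0 lower, 7 in the small and 5 in the large subunit. At an unadjusted limma p under 0.05, 4 were lower (RPL37A, RPL39, RPS18 and RPS25, named after their values were seen), and edgeR and DESeq2 each called 1 lower. Among the 12 called, RPS4X, encoded on the X chromosome, had the largest difference, 0.49 ± 0.08 (limma adjusted p = 0.00059). RPL30 had 0.74 ± 0.31 with no call (limma adjusted p = 0.092), but 0.35, 0.93 and 0.95 with a call without libraries 1, 2 or 3 of DMSO at 24 hours. RPS4X (chrX:72255679-72277248) had 20970, 17401 and 17764 in DMSO and 20533, 21119 and 19956 with AZD5153 at 24 hours, overlapping, and 16419, 16459 and 15507 against 25085, 24294 and 25342 at 48 hours, where they do not overlap. Its 0.14 at 24 hours (adjusted p = 0.047) was 0.22 with a call without library 1 of DMSO at 24 hours, but was not called without most of the others taken singly, with 0.09 to 0.14, nor by DESeq2 or with the 7 stably expressed genes (0.092), and was 0.016 with equal totals and -0.12 with quantile normalization. RPS20 had a difference of 0.40 ± 0.10 and RPL22 of 0.40 ± 0.08, the first from a larger rise and the second from a smaller fall at 48 hours. The counts turned on single libraries, with 18 higher and 4 lower without library 1 of DMSO at 24 hours (against 17.5% and 11.6% of all genes), 16 and 9 without its library 3 (16.7% and 12.7%), 12 and 2 without library 3 of AZD5153 at 24 hours (14.1% and 9.22%), and 7 and 0 without library 2 of DMSO at 48 hours (11.5% and 7.83%). With quantile normalization they were 2 and 7, against 11.3% and 10.3% of all genes.

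With culture time alone, DMSO at 48 against 24 hours, 6 members were higher and 10 lower, against 16.4% and 19.3% of all genes. For genes whose mean reached 100 these shares were 18.2% and 26.4%. RPL12 was 1.21-fold (limma adjusted p = 0.0015), RPL39 1.24-fold and RPL29 1.14-fold. RPL39 had 0.30 on the log2 scale there, or 0.16 with a call without library 1 of DMSO at 24 hours, and its call was lost without libraries 2 or 3 of DMSO at 48 hours (0.30 and 0.27). RPL29 had 0.18, or 0.12 without a call without library 3 of DMSO at 48 hours. RPL22L1 was 0.68-fold (adjusted p = 0.00059), RPL26L1 0.76-fold, RPL7L1 0.79-fold and RPSA 0.83-fold. RPL39L, the other paralog among the members, had -0.42 ± 0.18 with no call (adjusted p = 0.073), and was called without libraries 1 or 2 of AZD5153 at 24 hours (-0.42 each). The number higher was 17 without library 3 of DMSO at 24 hours (against 18.1% of all genes), 1 without library 3 of DMSO at 48 hours (12.9%), and 22 with quantile normalization (16.2%).

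Levels of different members were set against each other as normalized counts per kb of the canonical transcript in GENCODE 44. The median over the 78 members was 11196 per kb, with quartiles of 5049 and 18351, although a ribosome holds most of these proteins in equal number. RPL12 (43646 per kb), RPS2 (42305) and RPL19 (42225) were highest, and 16 members exceeded 20000. RPL36A (138), RPS23 (203), RPS15A (229) and RPL26 (259) were lowest, and 12 were under 1500, among them the 4 paralogs, RPL22, RPL23A, RPL37 and RPL30. Low levels and shared exons met in some of these genes. Exons of another gene cover 65.3% of RPL26, 43.8% of RPL36A and 51.4% of RPL30. Of the candidates under the level of 100, RPL17 had a mean of 23.4 and RPS10 of 37.2, and 96.9% and 84.0% of their canonical exon bases lie in exons of genes on the same strand that span them and are listed at 0. RPL3L, at 9.46, and RPL10L, at 0, share no exon bases and are known from muscle and testis. Just above the level were RPL36A at 105, RPL26 at 137 and RPL39L at 294. How the counter treated reads in shared exons was not tested.

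Across the 78 genes, the log2 fold change over both times had a Spearman correlation of 0.27 with the level per kb and of -0.07 with the percent of windows found elsewhere, as descriptions over genes that share libraries. The 40 members with under 10% of windows elsewhere and under 10% of exon bases shared, a split chosen after the values were seen, had 29 higher and 2 lower over both times, against 37.7% and 38.0% of all genes, and a median of 0.24. Pseudogenes named after the members summed to 1.30% of the members' own mean.

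**Figure D5:**
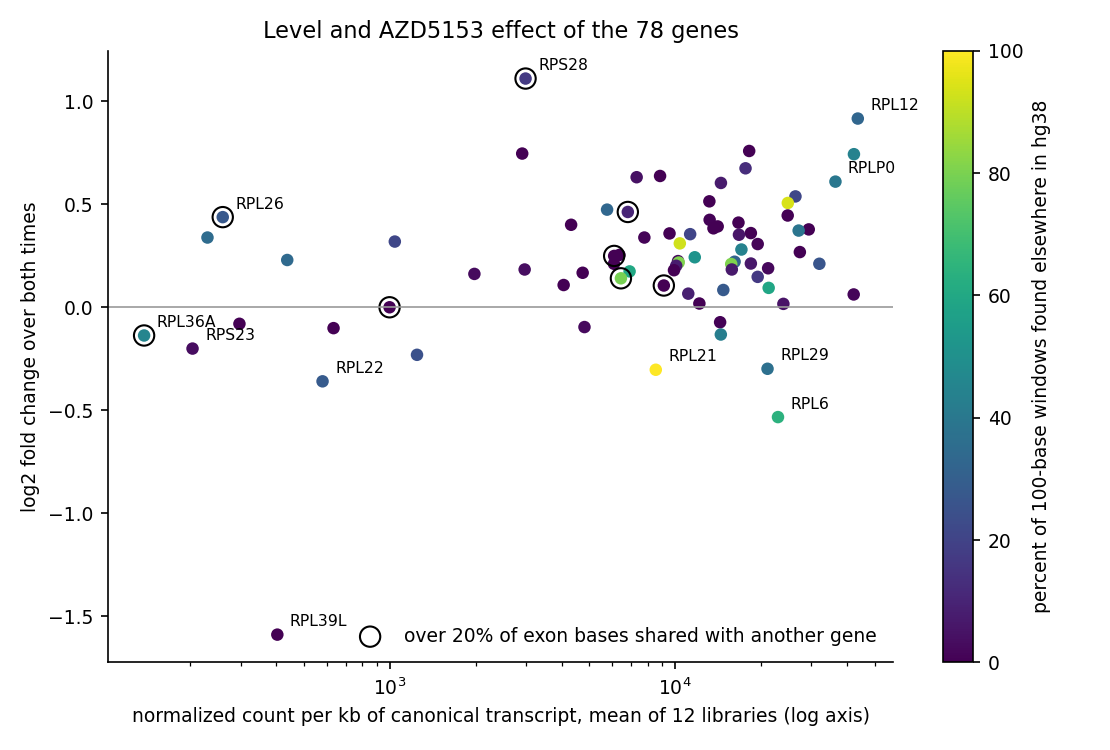
Log2 fold change over both times against the mean normalized count per kb of canonical transcript (log axis) for the 78 genes, coloured by the percent of 100-base windows found elsewhere in hg38, with rings around 8 genes that share over 20% of their exon bases with another gene. RPL12 and RPS28 are the highest and RPL39L, RPL6 and RPL22 the lowest on the vertical axis, and ringed genes lie both among the low-level genes and elsewhere.

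Ribosomal proteins with other names behaved unevenly. RPL36AL rose by 0.49 ± 0.06 over both times (limma adjusted p = 1.7e-06). FAU had -0.03 ± 0.10, or 0.094 without library 1 of DMSO at 24 hours, with no call for either. At 24 hours FAU had -0.09 without a call, or 0.16 with a call without that library. RACK1, a signalling scaffold on the small subunit head, had -0.02 ± 0.03 with no call, although it was called lower with quantile normalization (-0.41) and equal totals (-0.17).

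Of the other genes that make and regulate ribosomes, the lists are set against the 37.7% of all genes higher and 38.0% lower over both times. Of 73 ribosome biogenesis genes, 28 were higher and 28 lower (38.4% each, near that background), with a median of 0.02. The times differed in this list, with 24 higher and 33 lower at 24 hours, against 33.9% and 34.6% of all genes, and a median of -0.11, but 33 and 19 at 48 hours, against 33.1% and 33.9%, and a median of 0.11. The AZD5153 effect was higher at 48 than at 24 hours in 22 of its genes and lower in 2, against 14.4% and 10.1% of all genes. In DMSO alone 61 of the 73 were lower at 48 than at 24 hours, against 19.3% of all genes, and the same DMSO libraries enter the effects at each time. The lowest in that list were BRIX1, an assembly factor of the large subunit, at -1.59 ± 0.07, and GAR1, of the pseudouridylation snoRNPs, at -1.46 ± 0.07, and the highest were BOP1 at 0.96 ± 0.07 and NOP2 at 0.93 ± 0.23. NOP2 had a mean of only 30.5 normalized counts, and its treated and untreated libraries overlapped at 24 hours. Of 16 RNA polymerase I genes, 5 were higher and 10 lower (31.2% and 62.5%), or 4 and 10 at 24 hours and 5 and 6 at 48 hours, with TCOF1, the treacle factor of rDNA transcription, at -1.52 ± 0.04 and the initiation factor RRN3 at 0.68 ± 0.05. Of 21 RNA polymerase III genes, 11 were higher and 5 lower (52.4% and 23.8%), from GTF3C6 at -1.61 ± 0.07 to GTF3C1 at 0.99 ± 0.03. Of 79 mitochondrial ribosomal protein genes tested, 22 were higher and 31 lower (27.8% and 39.2%) with a median of -0.00, from MRPL23 at -1.43 ± 0.08 to MRPL41 at 1.03 ± 0.07.

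Translation initiation factors were higher in 27 and lower in 7 of 40 (67.5% and 17.5%, against 37.7% and 38.0% of all genes), with a median of 0.24, among them EIF4A1 (1.24 ± 0.13), EIF2B3 (1.07 ± 0.06) and, lower, EIF2A (-0.37 ± 0.06) and EIF6 (-0.33 ± 0.06). EIF4A1 had a mean of only 183 normalized counts. Other translation genes with a TOP mRNA were higher in 8 and lower in 4 of 17 (47.1% and 23.5%). EEF2, the translocation factor, rose by 0.84 ± 0.03 and EIF4A2 by 1.03 ± 0.03, and HNRNPA1 fell by 0.56 and NAP1L1 by 0.37. Of 11 snoRNA host genes with a TOP transcript, 5 were higher and 1 lower (45.5% and 9.09%), with SNHG12 at 1.49 ± 0.09 and ZFAS1 at 1.20 ± 0.09. At 24 hours 7 of these 11 were called higher and 0 lower, against 33.9% and 34.6% of all genes. At 48 hours 5 were higher and 2 lower, against 33.1% and 33.9%. Of 17 chaperones and surveillance factors of ribosomal proteins, 5 were higher and 6 lower (29.4% and 35.3%), with KRR1 at -0.83 ± 0.06 and HBS1L at 0.69 ± 0.05.

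Of 16 regulators of TOP mRNAs, 7 were higher and 6 lower (43.8% and 37.5%, near the 37.7% and 38.0% of all genes). MYC, which drives ribosome production, had group means of 865 normalized counts in DMSO and 2403 with AZD5153 at 24 hours, and of 659 and 1159 at 48 hours (log2 fold change over both times 1.14 ± 0.06). LARP1, the TOP-binding protein, had 10739 and 7664, then 9091 and 6566 (-0.48 ± 0.03). EIF4EBP2, a repressor of cap-dependent translation, rose by 1.02 ± 0.03, RPS6KB1, the S6 kinase, rose by 0.45 ± 0.05, and EIF4EBP1 had -0.14 ± 0.08 with no call, or -0.20 and -0.19 with a call without library 1 of DMSO or library 1 of AZD5153 at 24 hours, and -0.29 and -0.19 with a call under equal totals and quantile normalization. These lists, like the members, were chosen with results of these data known.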

How the data were processed

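RNA was extracted with the RNeasy kit, and NEBNext Ultra II libraries were sequenced as paired-end reads on a NovaSeq. The authors aligned reads to hg38 with STAR and counted them per gene with HTSeq, per the submitters' processing notes. Their versions, annotation and strand setting are not given in the sources used here. The deposited values are a signal for each library, namely gene counts divided by a DESeq2 size factor. The table also holds the authors' own comparison, that is log2 fold changes, a standard error and test score, and p-values, none of which was used. JQ1 libraries and CUT&RUN data were not analysed here.

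Values were whole multiples of 1 step in 100% of cases (tolerance 0.01 reads), so reads were recovered for edgeR and DESeq2. Symbols came from the identifier table and positions from GENCODE 44, for 60463 genes. The design had limma (3.58.1, R 4.3.3, trend, Benjamini-Hochberg) as the test for normalized values, on log2(normalized count + 1), for genes with a mean of at least 10, all 12 libraries in 1 fit. A simulation with true effects in only 200 of 15599 genes recovered 96% of the 200 over both times, with 4% false calls. In the real data 37.7% of genes were called higher and 38.0% lower over both times. The simulated rates therefore cannot be carried over to these data. Recovery at effects as small as the members' median of 0.23 is not given. edgeR 4.0.16 called 5887 genes higher and 5955 lower over both times, limma 5885 and 5934.

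Members and lists were chosen with earlier results of these data known. Genes named are members with set roles or paralogs, the 5 highest and lowest of each subunit over both times, the largest time differences, those nearest the level of 100, and in related lists the 2 largest changes in each direction. Alternatives were the pseudocount, the minimum mean, a minimum change, 3 scalings, quantile normalization, edgeR, DESeq2, a replicate block, fits of single comparisons, pseudogene counts added, and leaving out each library. Canonical transcripts were cut into 100-base windows and searched in hg38. Some items are not reported here.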

Additional observations from a re-analysis of the deposited data

Results flagged for a closer look

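The AZD5153 effect differed between 48 and 24 hours, by limma's test of the difference, for 6 of the named ribosomal protein genes and 1 paralog. The same test called 14.4% of all genes higher and 10.1% lower, or 19.8% and 11.3% of those whose mean reached 100. RPS4X, RPL22 and RPS20 were among the genes named for the size of this difference. The differences of log2 fold changes were 0.49 ± 0.08 (SE) for RPS4X (adjusted p = 0.00059), 0.40 ± 0.08 for RPL22 (0.0027), 0.40 ± 0.10 for RPS20 (0.0079), 0.24 ± 0.06 for RPL6 (0.013), 0.18 ± 0.06 for RPSA (0.03), 0.36 ± 0.12 for RPS28 (0.044) and -0.41 ± 0.12 for RPL36AL (0.022). RPS4X, RPS20, RPSA and RPL6 were themselves lower in DMSO at 48 than at 24 hours, with -0.21, -0.24, -0.26 and -0.20, and without library 1 of DMSO at 24 hours RPS4X had -0.13 and RPS20 -0.15. Both lost that call without library 3 of DMSO at 48 hours, with -0.18 and -0.20. The difference for RPS28 was 0.22 without a call without library 3 of AZD5153 at 24 hours, and its call was lost without most libraries taken singly, with 0.22 to 0.39. The call was also lost without 6 of the 12 libraries taken singly for RPSA, with 0.17 to 0.18, and without 5 for RPL36AL, with -0.34 to -0.38.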

How the results depend on the processing

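For 118 values of named genes, 2769 of 2906 alternative values kept their call or its absence, 64 lost the call and 55 gained one. Another 18 turned in direction with a call in the main or the alternative fit. A change of sign without a call in either fit was counted among the 2769. The cause of the following changes was not tested, except that a minimum change removes calls by construction. At 24 hours, higher calls were 31 with equal totals, 26 with quantile normalization and 12 with a change of at least 0.5 on the log2 scale, and lower calls were 16 with quantile normalization and 3 with that change. At 48 hours, higher calls were 29 with equal totals, with or without the members in the total, 20 with quantile normalization and 17 with the minimum change, and lower calls were 13, 12, 23 and 1. Over both times, these gave 35, 35, 24 and 13 higher, and 14, 13, 21 and 2 lower. In the first 3 of these fits 29.7%, 30.1% and 41.6% of all genes were higher, and 45.5%, 45.2% and 34.9% lower. With the minimum change 3544 of 15599 genes (22.7%) were higher over both times and 4204 lower. The difference between times gave 6 and 7 higher with equal totals, with and without the members, and 20 with 7 stably expressed genes. It gave 2 higher with quantile normalization and 0 with the minimum change. Lower were 1 and 1 with equal totals, 7 with quantile normalization, and 1 each by edgeR and DESeq2. Of all genes, 11.3% and 11.4% were higher with equal totals, with and without the members, and 2822 of 15635 with the 7 genes. With quantile normalization 11.3% were higher, and with the minimum change 6.31%. Lower were 12.1% with equal totals either way, 10.3% with quantile normalization, 11.3% by edgeR and 1721 of 15599 genes by DESeq2. With the minimum change, 22.9% of all genes were higher and 25.5% lower at 24 hours, and 21.4% and 25.8% at 48 hours. Time in DMSO gave 12 and 13 higher with equal totals, 22 with quantile normalization, 1 when only the groups compared were fitted and 0 with the minimum change, which left 2 lower. The shares of all genes higher were 20.0%, 20.2%, 16.2%, 13.8% and 9.48%, with 4.56% lower under the minimum change. The small subunit medians were 0.12, 0.13 and 0.075 at 24 hours and 0.15, 0.16 and 0.083 at 48 hours with equal totals, without the members in them, and with quantile normalization. Those of the large subunit were 0.10, 0.11 and 0.036, then 0.063, 0.070 and -0.020, and 0.18 at 24 hours with the 7 genes.

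With quantile normalization, RPLP0 turned to -0.18 and -0.020, RPSA to -0.40 and -0.23, RPS3 to -0.073 and -0.22, and RPL3 to -0.084 and -0.11 at 24 and 48 hours. RPS6 turned to -0.20 and -0.13, RPS4X to -0.12 at 24 hours, and RPL5 (-0.019), RPL7 (-0.018) and RPS27A (-0.22) at 48 hours. With equal totals RPSA turned to -0.12 at 24 hours (-0.11 without the members) and RPS27A to -0.13 at 48 hours. Without library 1 of DMSO at 24 hours RPL11 turned to 0.17, and leaving out single libraries gave -0.17 to 0.17.

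Leaving out 1 library gave 38 to 55 members higher and 7 to 10 lower at 24 hours. Of 15599 genes, 4885 to 5309 were higher and 5092 to 5494 lower in these fits. At 48 hours 43 to 55 members were higher and 4 to 9 lower, against 4791 to 5556 and 4905 to 5608 genes. Over both times 53 to 62 were higher and 7 to 9 lower, against 5701 to 6049 and 5779 to 6102. The difference gave 7 to 18 and 0 to 9, against 1794 to 2724 and 1213 to 1977. Time in DMSO gave 1 to 17 and 7 to 15, against 1935 to 2831 and 2507 to 3204. Medians ranged from 0.23 to 0.30 and 0.31 to 0.34 in the small, and from 0.19 to 0.26 and 0.20 to 0.26 in the large subunit. With the replicate block, 47 members were higher and 9 lower at 24 hours (against 33.4% and 34.1% of all genes), 46 and 6 at 48 hours (32.6% and 33.4%), 58 and 7 over both (37.3% and 37.7%), 11 and 0 for the difference (12.9% and 9.14%), and 6 and 10 for time (15.4% and 18.3%), and of the named genes RPL26 gained a call at 48 hours (0.39). The labels give libraries of different groups only a shared number. Same-numbered libraries deviated with correlations of -0.15 to 0.0363 in 18 pairs, which cannot tell whether they were grown or prepared together. Bulk counts do not separate RNA per cell from cell number, and 3 libraries a group limit small differences.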
